A study of Mus musculus with 16 samples.

Results

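The transcripts of the mitochondrial genome were examined in 16 RNA libraries from mouse retina. The members are all genes whose symbol starts with mt- in the deposited count tables, 37 of 117860 transcripts in each of the 2 tables. They comprise 13 protein genes, 2 rRNA genes and 22 tRNA genes, each with 1 transcript, and 28 of them lie on the plus and 9 on the minus strand of the annotated genome. The first table holds translating ribosome affinity purification (TRAP) from mice at postnatal day 60: a ribosomal protein with an HA tag, RPL22, is pulled down from retinal lysate with an antibody to HA (the IP), and 1.5% of the lysate is kept as total RNA (the input). The tag depends on Cre recombinase made from *Opn4*, the melanopsin gene, so that it is placed on ribosomes of intrinsically photosensitive retinal ganglion cells (ipRGCs), and the study's methods state that a small group of cones also carries it. In the first table, Rpl22HA mice carried Opn4-Cre and Rpl22-HA, and control mice carried Opn4-Cre without Rpl22-HA. There were 2 libraries each of Rpl22HA IP, Rpl22HA input, control IP and control input. In the second table, 4 Brn3b WT IPs came from mice with Opn4-Cre and Rpl22-HA, and 4 Brn3bcKO IPs came from littermates that also carried 2 copies of the conditional Brn3b allele (Brn3bcKO-AP). Every mouse thus carried Opn4-Cre, both retinas of an animal were combined, the background was a mix of B6 and 129, and the lysis buffers held cycloheximide, which stalls cytosolic ribosomes. The second table holds no untagged IP and no input.

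Mitochondria keep a small circular genome that is transcribed from both strands into long precursors. These are cut, mostly at the tRNAs that lie between the other genes, into mRNAs, rRNAs and tRNAs. The mRNAs encode subunits of respiratory complexes I, III, IV and V and are translated by ribosomes inside the organelle, which are built on the mitochondrial rRNAs and do not contain RPL22. All other subunits of these complexes are encoded in the nucleus and are made on cytosolic ribosomes, which do contain RPL22. Photoreceptors and ganglion cell axons are among the cells richest in mitochondria in the retina.

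Several facts of the libraries bear on the comparisons. In the first table the total count was lowest in control input replicate 1 (2332612) and at most 14512132 elsewhere. The second table spanned 12994498 to 20350881. The tables count each transcript, and many transcripts of 1 nuclear gene repeat its counts, so a total is not a number of reads. The labels of the first table describe male and female mice pooled, but 4 Y-linked genes together had 135 to 370 counts in each Rpl22HA library and at most 7 in any control library. Every comparison of Rpl22HA with control libraries therefore cannot be told apart from a difference in sex. *Opn4* ran from 35.5 to 36.1 normalized CPM (counts scaled to library size by TMM) in the Rpl22HA IPs and from 1.19 to 1.51 in their inputs. *Pou4f2*, which encodes BRN3B, was lower in all 4 Brn3bcKO IPs (18.8 to 34.0) than in the 4 Brn3b WT IPs (36.8 to 64.2), but the change of -0.83 (log2, SE 0.22) did not pass the threshold over all transcripts (edgeR adjusted p = 0.0852).

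Parts of the mitochondrial genome are also present as copies in the nuclear genome, and the members that were copied in full had few counts. Of 16263 windows of 37 bases, the read length, along the mitochondrial genome, 6310 (38.8%) had an exact copy on a nuclear chromosome of GRCm38.p6, and 4574 of them had one on chromosome 1. The largest block spanned positions 6394 to 9828 of the mitochondrial genome, which matched chr1:24612750-24616184 on the minus strand over 3435 bases with 1 difference. That difference, T9461C (mitochondrial base first, position counted from the start of the mitochondrial genome, then the base of the chromosome 1 copy), lies at position 3 of *mt-Nd3*. A second block joined positions 9821 to 11042 to chr1:24611535-24612756. The 73 bases around the difference are shown because they hold the 3 windows of *mt-Nd3* that set it apart from the nuclear copy. The first sequence lies at positions 9425 to 9497 of the mitochondrial genome on the plus strand and the second at chr1:24613081-24613153 on the minus strand, with the base that differs in capitals.
mt-Nd3 window, mitochondrial genome: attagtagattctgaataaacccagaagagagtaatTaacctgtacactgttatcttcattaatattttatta
mt-Nd3 window, copy on chromosome 1: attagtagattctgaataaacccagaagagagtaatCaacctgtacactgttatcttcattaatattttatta

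In 14 members (5 protein and 9 tRNA genes) every window had a nuclear copy, and these had almost no counts. They include *mt-Co2* (positions 7013 to 7696) and *mt-Co3* (8607 to 9390), subunits of cytochrome c oxidase, *mt-Atp8* (7766 to 7969) and *mt-Atp6* (7927 to 8607), subunits of ATP synthase, and *mt-Nd4l* (9877 to 10173), a subunit of complex I. Summed over the 16 libraries, *mt-Co2* had 17 counts, *mt-Co3* 16, *mt-Atp6* 5, *mt-Atp8* 4 and *mt-Nd4l* 1, and all 14 members together had 52. The 10 protein and rRNA genes with at least 1 unique window had between 12688 counts (*mt-Nd3*, in which 3 of 312 windows were unique) and 710341 counts (*mt-Nd1*, with no copied window). The treatment of reads with several positions was not given in the sources used here. Low counts were also found without a copy, as in the phenylalanine tRNA *mt-Tf*, in which 0 of 32 windows were copied and which had 17 counts. The part of the copies in the counts was not tested. A count near 0 in these 14 genes was not read as a level of their RNA, and no result on ATP synthase subunits encoded in the mitochondrion is given. The 8 nuclear genes annotated as such copies that were searched in the tables held 14 counts (first table) and 6 counts (second table).

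**Figure D1:**
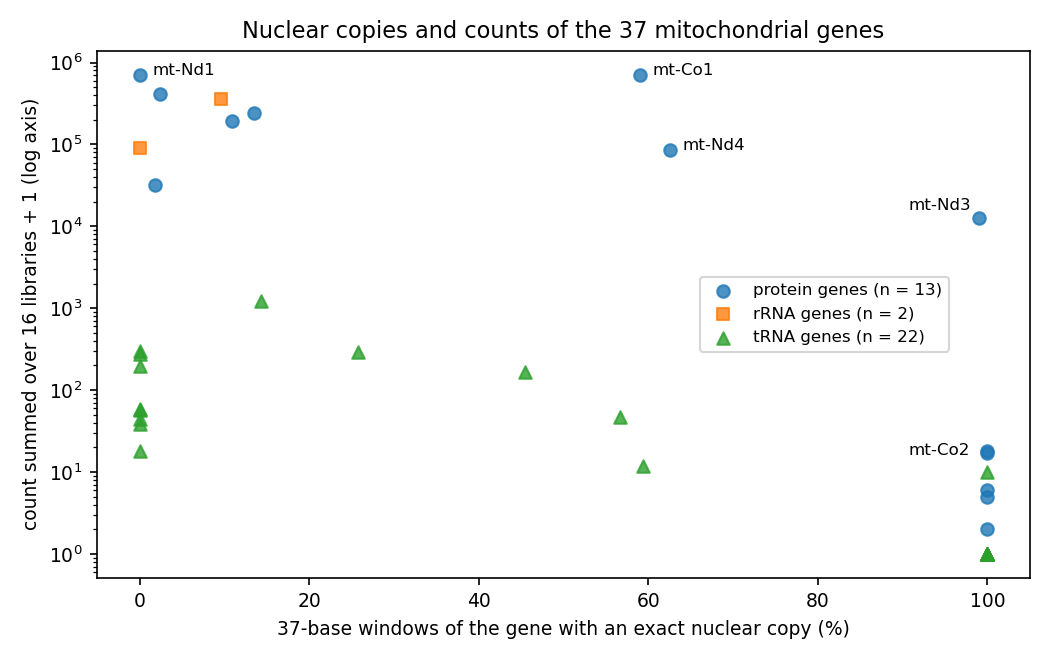
Each point is 1 of the 37 mitochondrial genes, with the percentage of its 37-base windows that have an exact nuclear copy on the x axis and its count summed over 16 libraries, plus 1, on a logarithmic y axis. The genes at 100% have at most 17 counts, while *mt-Nd3*, at 99%, has 12688.

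The tRNA genes were counted sparsely: 8 of 22 had no count in any library, and the 13 with a unique window had between 11 and 1227 counts over all 16 libraries. Mature tRNAs are short and folded, and the study's methods do not describe a step to capture them. After the filter on low counts, 16 members were tested in the first table. In the second, 12 members were tested. Those tested in both are the protein genes *mt-Nd1*, *mt-Nd2*, *mt-Co1*, *mt-Nd3*, *mt-Nd4*, *mt-Nd5*, *mt-Nd6* and *mt-Cytb*, the rRNA genes *mt-Rnr1* and *mt-Rnr2*, and the tRNA genes *mt-Tq* and *mt-Tp*. *mt-Ti*, *mt-Tm*, *mt-Ta* and *mt-Tt* passed in the first table only. They did so through the control IPs, since the filter asks for 1.07 CPM in at least 2 libraries and at most 1 library outside the control IPs reached it. A higher level in the control IPs was thus fixed by the filter for these 4, whose values are given as a description, and counts of members called are given over the 12 others. The remaining 21 members of the first table and 25 of the second were not tested.

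The use of strand in counting was not given in the sources used here. For members on the minus strand, *mt-Nd6*, *mt-Tq*, *mt-Ta* and *mt-Tp* among those tested, their own RNA and RNA of the opposite strand at the same position therefore cannot be told apart. The same holds for neighbours that share bases, such as *mt-Nd5* (11742 to 13565) and *mt-Nd6* (13552 to 14070).

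Members of the mitochondrial genome took a smaller share of the counts in tagged IPs than in any other kind of library. The share was 3.57% and 2.97% in the control inputs and 3.11% and 3.22% in the Rpl22HA inputs. The control IPs held 3.67% and 4.2%, and the Rpl22HA IPs held 0.555% and 0.885%. Both Rpl22HA IPs thus lay below all 6 other libraries of that table. The means were 0.72% ± 0.23 (SD, n = 2) in Rpl22HA IPs, 3.16% ± 0.07 (SD, n = 2) in their inputs, 3.94% ± 0.38 (SD, n = 2) in control IPs and 3.27% ± 0.42 (SD, n = 2) in control inputs. In the second table, where every IP was tagged, the share was 0.56% ± 0.13 (SD, n = 4) in Brn3b WT IPs and 0.78% ± 0.42 (SD, n = 4) in Brn3bcKO IPs. With 1 transcript per nuclear gene in the total, the means of the first table were 1.50%, 6.54%, 8.53% and 6.74% in the same order. The shares were given no test, since they are sums over the members.

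**Figure D2:**
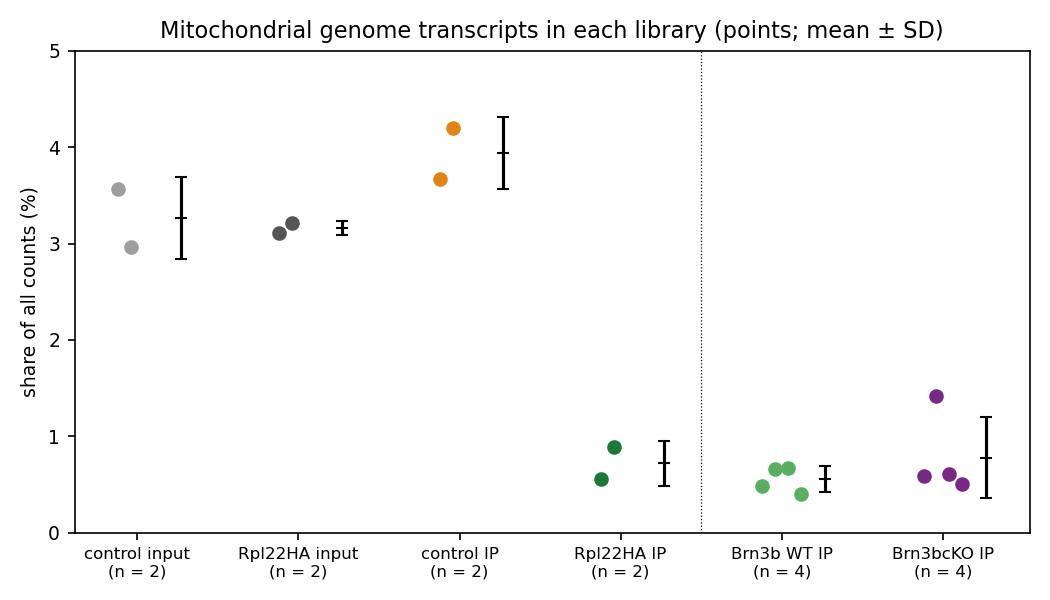
Points give the percentage of all counts that fell on the 37 mitochondrial genes in each library, and bars the mean ± SD of the group. The dotted line parts the first table (left) from the second, and the 2 Rpl22HA IPs, at 0.555% and 0.885%, lie below the 6 other libraries of the first table.

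Between the IPs with and without the HA tag, the protein and rRNA genes were lower with the tag. All 12 members that did not pass the filter through the control IPs alone were called lower, with log2 changes from -2.90 to -1.64 (median -2.36), where 30.9% of all 45189 transcripts tested were lower (edgeR quasi-likelihood test, adjusted p under 0.05 over all transcripts). The medians were -2.31 for the 8 protein genes and -2.22 for the 2 rRNA genes, and the median of all transcripts tested was -0.06. The tRNAs *mt-Tq* and *mt-Tp* changed by -2.90 and -2.70. The 2 groups did not overlap in any of the 12, as held for 40.9% of all transcripts in this direction. The 4 tRNAs held by the filter had values of -3.42 to -2.82. The study kept for its own analysis only transcripts that were higher in the tagged than in the untagged IP, and no tested member met that condition.

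The protein genes of complex I, NADH dehydrogenase, illustrate the size of the change. *mt-Nd1* (2751 to 3707) had 1780 and 3006 normalized CPM in the Rpl22HA IPs and 9707 and 12989 in the control IPs, a change of -2.25 (SE 0.22, edgeR adjusted p = 1.52e-07). *mt-Nd5* had 664 and 798 against 4956 and 5083, the steepest fall among the protein genes at -2.78 (SE 0.16, edgeR adjusted p = 4.27e-10). *mt-Nd2* (3914 to 4951) changed by -2.49, *mt-Nd4* (10167 to 11544) by -2.27 and *mt-Nd6* by -2.42. *mt-Nd3* (9459 to 9806) fell least, by 1.64 (SE 0.30), from 53.4 and 86.0 normalized CPM in the control IPs to 14.1 and 30.6.

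The other respiratory genes and the rRNAs fell by similar amounts. *mt-Cytb* (14145 to 15288), the mitochondrial subunit of complex III, had 513 and 842 normalized CPM in the Rpl22HA IPs and 2960 and 3946 in the control IPs (-2.35, SE 0.22). *mt-Co1* (5328 to 6872), the catalytic subunit of cytochrome c oxidase, had 1361 and 2354 against 7977 and 9512 (-2.24, SE 0.22). *mt-Rnr2* (1094 to 2675), the RNA of the large mitochondrial ribosomal subunit, had 732 and 1007 against 4579 and 4437 (-2.37, SE 0.28). *mt-Rnr1* (70 to 1024), the RNA of the small subunit, had 166 and 191 against 803 and 685 (-2.06, SE 0.39).

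Nuclear genes for subunits of the same complexes moved the other way between these IPs. Of the nuclear complex I subunits, 37 of 37 tested were higher in the Rpl22HA IPs than in the control IPs and none was lower (median 2.08), where 29.3% of all transcripts were higher. The counts were 9 of 9 for complex III (median 1.79), 12 of 14 for complex IV (median 2.38) and 14 of 17 for complex V (median 2.02), with none lower in these 3 lists. *Ndufc2*, an accessory subunit of complex I, rose by 3.56 (SE 0.19), *Uqcrc1* of complex III by 2.01 (SE 0.16), *Cox5a* of complex IV by 3.75 (SE 0.18) and *Atp5b* of complex V by 2.64 (SE 0.17). Proteins of the mitochondrial ribosome, which are encoded in the nucleus, were higher in 64 of 78 (median 1.11) and lower in 1, *Mrps17* (-0.75). Of 28 nuclear genes of mitochondrial transcription and RNA processing, 5 were higher (*Grsf1*, *Slirp*, *Tfb1m*, *Hsd17b10* and *Tfb2m*) and 9 lower, among them *Ssbp1* (-1.41) and *Polg2* (-1.19), with a median of -0.34. Of all transcripts 29.3% were higher and 30.9% lower.

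A different set of RNAs moved in the same direction as the mitochondrial genes. Of 10 long noncoding RNAs that are mostly kept in the nucleus, 9 were lower in the Rpl22HA IPs than in the control IPs (median -1.98), where 30.9% of all transcripts were lower, among them *Snhg11* (-2.01), *Kcnq1ot1* (-2.22) and *Meg3* (-1.90). The list holds *Xist* (-3.75), which depends on sex, and the 1 that was higher was *Peg13* (0.66). Their summed level was 753 to 774 normalized CPM in the Rpl22HA IPs and 3340 to 3723 in the control IPs. Markers of some cell types differed between these IPs as well. The summed level of 10 cone genes was 7967 to 9787 normalized CPM in the Rpl22HA IPs and 568 to 582 in the control IPs. In the same order, 10 ganglion cell genes had 3990 to 4245 and 476 to 592. For 8 Muller glia genes the sums were 503 to 525 and 373 to 397. Lower with the tag were 8 amacrine cell genes (111 to 137 and 271 to 314) and 8 bipolar cell genes (171 to 232 and 430 to 436). The sums of 10 rod genes overlapped, at 12068 to 13791 and 11901 to 12708. The part of these RNAs in the result on the mitochondrial genes was not tested.

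Against its own input, the tagged IP held less of most members. In Rpl22HA IPs, 9 of the 12 members were lower than in the Rpl22HA inputs, 1 was higher and 2 were not called (median -1.72), where 11.5% of all transcripts were lower and 23.0% higher. Among the protein genes 6 of 8 were lower, and both rRNAs were lower. In bulk RNA, fewer cells of a type and less RNA per cell cannot be told apart, and the input holds all cells of the retina.

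Markers of rods, Muller glia, amacrine and bipolar cells were also lower in these IPs than in the inputs, while those of cones and ganglion cells were higher. Summed over 10 rod genes the level was 44297 to 49301 normalized CPM in the Rpl22HA inputs and 12068 to 13791 in the IPs, and 10 of 10 were called lower (median -1.68). For 8 Muller glia genes it was 2711 to 2779 against 503 to 525 (8 of 8 lower, median -3.08). For 8 amacrine cell genes it was 537 to 555 against 111 to 137 (7 of 8 lower, median -2.79), and for 8 bipolar cell genes 516 in both inputs against 171 to 232 (7 lower, 1 higher). All markers of these 4 lists were above 0 in every library. The sums of 10 cone genes (1141 to 1152 against 7967 to 9787) and 10 ganglion cell genes (616 to 662 against 3990 to 4245) were higher in the IPs. The control IPs also held less than their inputs for rods (11901 to 12708 against 42789 to 42893) and Muller glia (373 to 397 against 2423 to 2452). In the same order, cones had 568 to 582 and 998 to 1170, and amacrine cells 271 to 314 and 516 to 519. Bipolar cells had 430 to 436 and 464 to 475, and ganglion cells 476 to 592 and 599 to 627. The part of these cells in the values of the mitochondrial genes was not tested.

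The fall was steepest for *mt-Cytb*, which had 8798 and 8983 normalized CPM in the Rpl22HA inputs and 513 and 842 in the IPs. That is a change of -3.71 (SE 0.23, edgeR adjusted p = 2.52e-09). *mt-Nd3* (-2.73, SE 0.30) and *mt-Nd4* (-2.71, SE 0.22) followed, with intervals that overlap each other. *mt-Rnr1*, with 1402 and 858 normalized CPM in the inputs, changed by -2.66 (SE 0.39). *mt-Rnr2*, with 4439 and 3621, changed by -2.21 (SE 0.28). *mt-Co1*, with 7140 and 7543, changed by -1.98 (SE 0.21). The changes of *mt-Nd1* (-1.45, SE 0.21) and *mt-Nd2* (-1.16, SE 0.21) were smaller.

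The last complex I genes in genome order stood apart in this contrast. *mt-Nd5* had 848 and 829 normalized CPM in the Rpl22HA inputs and 664 and 798 in the IPs, and its change of -0.20 (SE 0.15, 95% interval -0.50 to 0.11) was not called (edgeR adjusted p = 0.347). *mt-Nd6* had 66.9 and 92.2 in the inputs and 99.5 and 164 in the IPs, and it was called higher by 0.73 (SE 0.22, edgeR adjusted p = 0.0174). This call was lost without Rpl22HA IP replicate 2 (0.17, edgeR adjusted p = 0.652), without Rpl22HA input replicate 1 (0.52, edgeR adjusted p = 0.208) and when the scaling left out the mitochondrial genes (0.55, edgeR adjusted p = 0.0703).

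The tRNA genes that passed the filter had changes in both directions, on few counts. *mt-Tq*, on the minus strand, fell by 1.44 (SE 0.47, edgeR adjusted p = 0.0256) from 6.68 and 6.62 normalized CPM in the inputs to 1.20 and 3.62 in the IPs. That call was lost in DESeq2 (adjusted p = 0.15) and without Rpl22HA IP replicate 1 (adjusted p = 0.124), Rpl22HA input replicate 1 (adjusted p = 0.0799) or Rpl22HA input replicate 2 (adjusted p = 0.0738), each by edgeR. *mt-Tt*, the threonine tRNA, had 6 and 15 counts in the Rpl22HA IPs and 0 and 0 in their inputs. Against a floor of 3 counts per library, it was at least 2.40-fold higher in the IPs, a value given as a description. *mt-Ti*, *mt-Tm*, *mt-Ta* and *mt-Tp* were not called (edgeR adjusted p of 0.128 to 0.870).

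Without any HA tag, the IP held mitochondrial RNA of a different make-up from the input. In control IPs, 4 of the 12 members were higher than in the control inputs, 3 were lower and 5 were not called (median 0.53), where 27.5% of all transcripts were higher and 23.7% lower. Both counts of calls were near these shares and are not read as a result about the members. The make-up is given by the values of single genes. *mt-Nd6* rose from 103 and 79.1 normalized CPM in the control inputs to 627 and 783 in the control IPs (2.97, SE 0.24, edgeR adjusted p = 2.58e-08). *mt-Nd5* rose from 897 and 828 to 4956 and 5083 (2.54, SE 0.16, edgeR adjusted p = 2.00e-09). *mt-Nd1* (1.01, SE 0.21) and *mt-Nd2* (1.18, SE 0.21) also rose.

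In the same contrast *mt-Cytb* fell from 7438 and 8350 normalized CPM in the inputs to 2960 and 3946 (-1.19, SE 0.21), and *mt-Nd3* fell by 1.55 (SE 0.29). *mt-Co1* (0.32, SE 0.21) and *mt-Nd4* (-0.37, SE 0.21) were not called. For the rRNAs 1 library decided the values: *mt-Rnr1* had 2679 and 708 normalized CPM in the control inputs and *mt-Rnr2* 6834 and 2946, with the higher value each time in replicate 1, the shallowest library. *mt-Rnr1* was called lower with a change of -1.18 (SE 0.37, edgeR adjusted p = 0.0139), but DESeq2 did not call it (adjusted p = 0.113) and without control input replicate 1 the change was 0.05 (edgeR adjusted p = 0.891). *mt-Rnr2* changed by -0.12 with both libraries and by 0.59 (edgeR adjusted p = 0.0223) without it.

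For the 4 tRNA genes that passed the filter through the control IPs, the control IPs were bound to be high, and the values are a description. *mt-Tt* had 55 and 121 counts in the control IPs against 0 and 2 in the inputs, a ratio of 36.6 in CPM with an exact 95% counting interval of 9.97 to 304. *mt-Ti* had 43 and 88 counts against 2 and 1, a ratio of 18.1 (6.07 to 89.1). The fitted differences of *mt-Tm* and *mt-Ta* were 2.47 (SE 0.60) and 2.25 (SE 0.65). Such intervals cover counting error only. These 3 tRNAs of the plus strand are shown, with the anticodon in capitals, because they are the tRNAs of that strand that passed the filter and each lies next to an mRNA gene.
mt-Ti: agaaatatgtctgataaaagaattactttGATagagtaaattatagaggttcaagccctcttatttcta
mt-Tm: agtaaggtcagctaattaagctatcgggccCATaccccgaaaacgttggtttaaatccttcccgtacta
mt-Tt: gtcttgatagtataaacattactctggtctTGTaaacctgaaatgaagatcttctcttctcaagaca

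They lie at positions 3706 to 3774, 3845 to 3913 and 15289 to 15355 of the mitochondrial genome in GRCm38.p6, as RefSeq gives it. *mt-Ti* is the isoleucine tRNA and starts within the last bases of *mt-Nd1*, and *mt-Tm*, the methionine tRNA, ends 1 base before *mt-Nd2* starts. *mt-Tt* starts 1 base after the end of *mt-Cytb*. A read of 37 bases that crosses such an edge can hold bases of both genes, and the assignment of such reads was not given in the sources used here.

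Tagged and untagged IPs differed from their inputs in a like order of members, at different heights. Across the 10 protein and rRNA genes, the change of the Rpl22HA IP against its input and that of the control IP against its input had a Pearson r of 0.96 and a Spearman rho of 0.98. Genes are not independent replicates, these contrasts share no library, and the points share the genes' length, base composition and mappable part. In 10 of these 10 genes the change was lower with the tag, and the median difference was -2.32.

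The difference between both changes, tested as an interaction, sets IP over input in Rpl22HA libraries against that in control libraries. The HA tag cannot be told apart there from a difference in sex. The difference was below 0 and called for 11 of the 12 members, with none called above 0. Of all transcripts 17.6% were called below 0 and 20.6% above it. The 8 protein genes were all called, from *mt-Nd3* (-1.19, SE 0.40, edgeR adjusted p = 0.0281) to *mt-Nd5* (-2.74, SE 0.22, edgeR adjusted p = 9.60e-08). *mt-Rnr2* (-2.10, SE 0.38) and *mt-Rnr1* (-1.48, SE 0.53, edgeR adjusted p = 0.0343) were called too, as was the tRNA *mt-Tq* (-2.19, SE 0.63). The calls of *mt-Rnr1*, *mt-Nd3* and *mt-Tq* were lost in DESeq2 (adjusted p of 0.205, 0.163 and 0.153). *mt-Rnr1* also lost it without Rpl22HA input replicate 1 (edgeR adjusted p = 0.136) or control input replicate 2 (edgeR adjusted p = 0.0637), *mt-Tq* without control input replicate 2 (edgeR adjusted p = 0.0958), and *mt-Nd3* in 5 of the 8 fits with a library left out (edgeR adjusted p up to 0.176). *mt-Tp* (-2.33) missed the threshold (edgeR adjusted p = 0.0513) and passed it with the replicate number as a block (edgeR adjusted p = 0.0295).

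**Figure D3:**
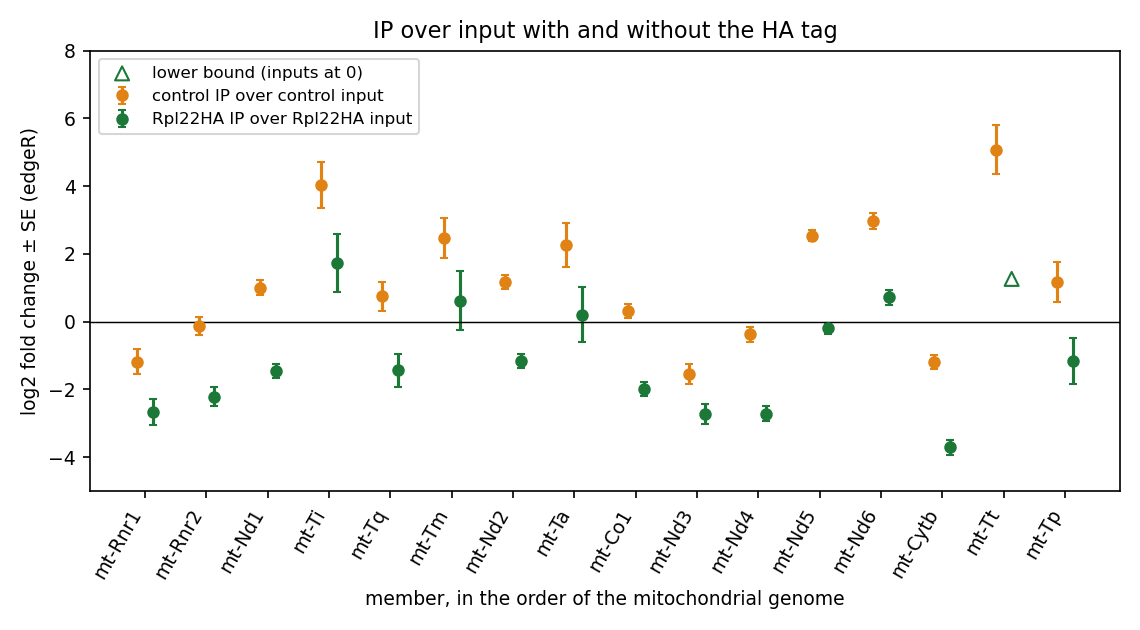
Log2 fold change ± SE (edgeR) of IP over input for the 16 members tested, in genome order, for control (orange) and Rpl22HA (green) libraries, 2 per group. The open triangle for *mt-Tt* is a lower bound because both Rpl22HA inputs had no count, and *mt-Ti*, *mt-Tm*, *mt-Ta* and *mt-Tt* passed the filter only through the control IPs. In the 10 protein and rRNA genes the green point lies below the orange one.

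Nuclear genes of the respiratory chain again behaved otherwise. In control IPs against control inputs, 36 of 37 complex I subunits were lower and none higher (median -1.47), where 23.7% of all transcripts were lower. In Rpl22HA IPs against their inputs 21 were higher and none lower (median 0.56), where 23.0% were higher and 11.5% lower. In the Rpl22HA IPs against inputs, 7 of 9 subunits of complex III, 11 of 14 of complex IV and 12 of 17 of complex V were higher, and 1, *Cox6b2* of complex IV, was lower (-1.28). Of the mitochondrial ribosomal proteins 45 of 78 were higher and none lower.

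The inputs of the 2 genotypes did not differ by the test in any member. None of 16 was called between Rpl22HA and control inputs by edgeR and none had an unadjusted p under 0.05, where 0.0155% of all transcripts were called higher and 0.00443% lower. The protein genes differed by -0.45 to 0.21, with 95% intervals reaching from -1.0 to 0.62.

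Ratios between members within a library, which do not depend on scaling to other genes, separated IPs from inputs. The count of *mt-Nd5* relative to *mt-Cytb* was 0.121 and 0.0992 in the control inputs and 0.0964 and 0.0922 in the Rpl22HA inputs. Control IPs had ratios of 1.67 and 1.29, and Rpl22HA IPs of 1.29 and 0.948. In the 8 IPs of the second table it ran from 0.789 to 1.69. Every IP was thus above every input, with or without the tag. *mt-Nd6* relative to *mt-Cytb* ran from 0.00761 to 0.0138 in the 4 inputs and from 0.0966 to 0.212 in the 12 IPs.

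**Figure D4:**
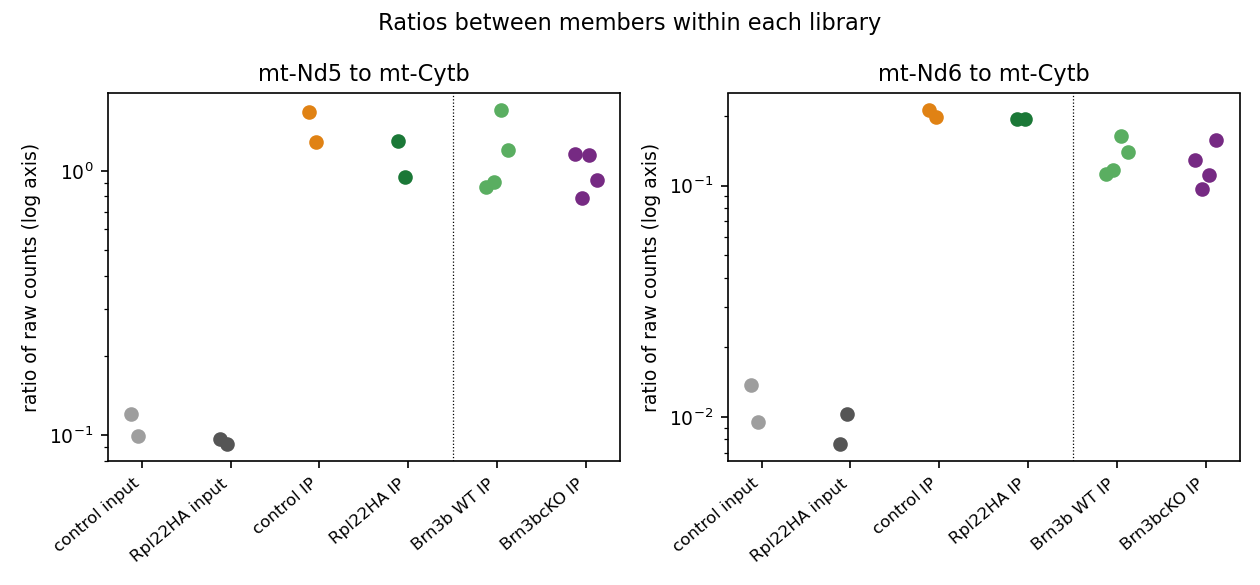
Each point is the ratio of raw counts of *mt-Nd5* (left) or *mt-Nd6* (right) to *mt-Cytb* in 1 library, on a logarithmic axis, with the first table left of the dotted line. All 12 IPs lie above the 4 inputs in both ratios. In the *mt-Nd6* ratio the Rpl22HA IPs (0.194 and 0.195) lie just below the control IPs (0.212 and 0.198). The IPs of the second table lie lower in that ratio, at 0.0966 to 0.165.

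The make-up of the mitochondrial counts showed the same division. *mt-Cytb* took 21.9% to 29.4% of mitochondrial counts in the 4 inputs and 8.32% to 9.18% in the 4 IPs of the first table. *mt-Nd1* took 16% to 20.8% in the inputs and 27.3% to 31.8% in the IPs. *mt-Co1* took 22.1% to 24.9% in all 8 libraries of that table and 26.3% to 32.9% in the second, where the tables were counted separately and no test across them was made. Per 100 windows without a nuclear copy, a scale on which genes can be set beside each other if only reads from such windows were counted, *mt-Co1* led in the Rpl22HA inputs with 1188 normalized CPM. There it was followed by *mt-Cytb* (822), *mt-Nd1* (709), *mt-Rnr2* (288), *mt-Nd4* (265), *mt-Nd2* (163), *mt-Rnr1* (123), *mt-Nd5* (54.2) and *mt-Nd6* (16.8). In the Rpl22HA IPs, on the same scale, *mt-Co1* (301) and *mt-Nd1* (260) led, and *mt-Cytb* had 62.7. *mt-Nd3*, with 3 unique windows, was left off, since the scale was used only from 100 such windows. Over all 16 libraries it had 422933 counts per 100 unique windows, against 112582 for *mt-Co1*. Before this division *mt-Cytb* led in the Rpl22HA inputs, with 8891 normalized CPM against 7342 for *mt-Co1*. The reads were paired, and whether only reads from unique windows were counted was not tested.

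Removal of BRN3B from these cells was tested for the same transcripts. In Brn3bcKO against Brn3b WT IPs, none of the 12 members tested was called by edgeR in either direction, where 0.432% of 43975 transcripts were higher and 0.735% lower. None had an unadjusted p under 0.05, DESeq2 also called none, and the groups overlapped in all 12, while 9.6% of all transcripts had groups that did not overlap. The changes were above 0 in 11 of 12 members (median 0.45). The 4 libraries of a group came from separate mice, and the labels give their sex, which was not matched by replicate number.

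*mt-Cytb* had the smallest p of the members. In the Brn3b WT IPs it had 482, 461, 508 and 376 normalized CPM, and in the Brn3bcKO IPs 539, 1390, 515 and 398, a change of 0.64 (SE 0.32, 95% interval 0.02 to 1.26, edgeR adjusted p = 0.358). Replicate 2 of Brn3bcKO stood far above the rest, and without it the change was 0.08. *mt-Nd1* had 1410, 1380, 1366 and 904 in Brn3b WT IPs and 1639, 4401, 1392 and 806 in Brn3bcKO IPs. Its change of 0.70 (SE 0.39, edgeR adjusted p = 0.412) became 0.02 without Brn3bcKO replicate 2.

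*mt-Co1* had 1654, 1953, 1711 and 1268 normalized CPM in Brn3b WT IPs and 2034, 3827, 1760 and 1587 in Brn3bcKO IPs (0.48, SE 0.26, and 0.12 without that replicate). The changes of *mt-Nd2* (0.45), *mt-Nd3* (0.22), *mt-Nd4* (0.58) and *mt-Nd5* (0.32) lay between -0.51 (*mt-Nd3*) and -0.03 without it. *mt-Nd6* changed by 0.41. *mt-Rnr1* changed by 0.64 (95% interval -0.15 to 1.42) and *mt-Rnr2* by 0.44 (95% interval -0.19 to 1.06). For the tRNAs *mt-Tq* and *mt-Tp* the changes were -0.27 and 0.38. The 95% intervals of the 12 members together reached from -1.06 to 1.46.

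**Figure D5:**
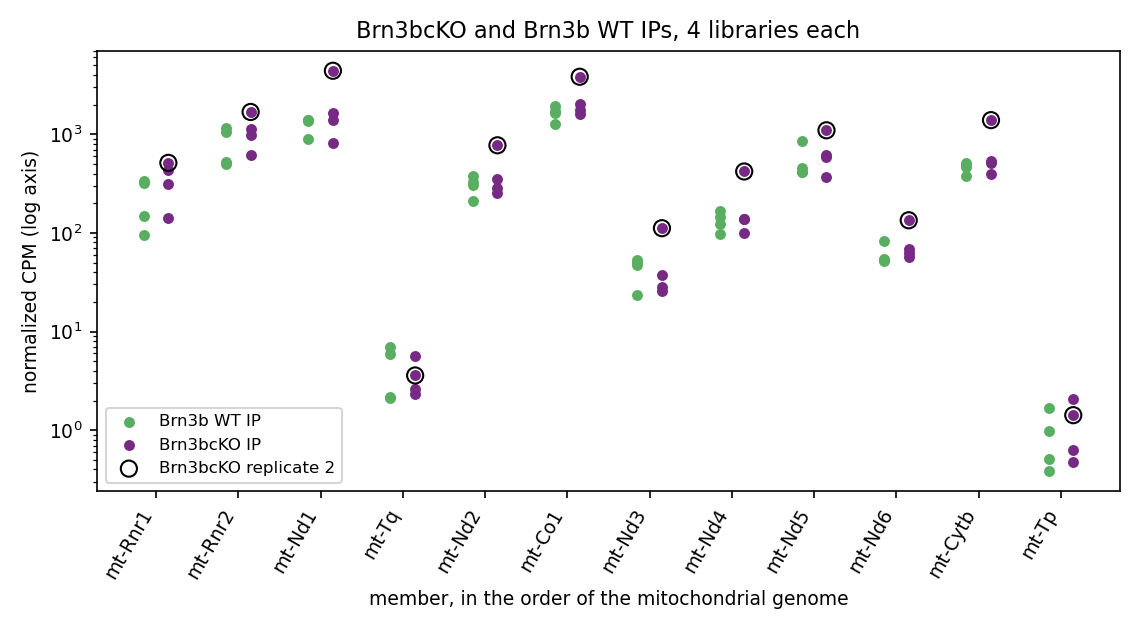
Normalized CPM on a logarithmic axis for the 12 members tested in the second table, in genome order, with 1 point per library, 4 Brn3b WT IPs (light green) and 4 Brn3bcKO IPs (purple). The circled Brn3bcKO replicate 2 is the highest library for the 8 protein genes and the 2 rRNA genes, and the other libraries of both groups overlap.

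By library, Brn3bcKO replicate 2 held 1.41% of its counts in mitochondrial genes, against 0.594%, 0.605% and 0.508% in the other Brn3bcKO IPs and 0.401% to 0.671% in the Brn3b WT IPs. Without it the Brn3bcKO mean was 0.57%. Brn3bcKO replicate 4 had the lowest share of protein genes among its mitochondrial counts, with rRNA at 30.2% of them. In the other 7 IPs of this table rRNA took 11.8% to 23.6%. Within the Brn3bcKO IPs alone the rRNA part thus ran from 12.2% to 30.2%.

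Summed markers of rods, cones, ganglion and amacrine cells differed between the genotypes in these libraries, while those of Muller glia and bipolar cells overlapped. The study counted fewer ganglion cells with the HA tag in Brn3bcKO retinas, and no significant difference in cones with the tag. It scaled fold changes of selected ipRGC-enriched transcripts by the ratio of these cells, an adjustment that was not applied here. Summed over 10 rod genes the level was 6641 to 8807 normalized CPM in Brn3b WT IPs and 9323 to 14913 in Brn3bcKO IPs, and over 10 cone genes it was 4207 to 7313 and 8340 to 11742, with all markers of both lists above 0 in every library. Of the cone genes 5 of 10 were called higher (*Pde6c*, *Cngb3*, *Pde6h*, *Gngt2* and *Kcne2*), and of 10 rod genes none was called. Of all transcripts tested between these genotypes, 0.432% were called higher and 0.735% lower. Brn3bcKO replicate 2 lay within the range of the other Brn3bcKO IPs in both sums, at 10699 for rods and 8428 for cones. The sums of 10 ganglion cell genes did not overlap either, at 3637 to 5155 in Brn3b WT IPs and 2208 to 3061 in Brn3bcKO IPs, with replicate 2 the lowest, and 2 of the 10, *Sncg* and *Pou4f1*, were called lower. Amacrine cell genes summed to 129 to 174 and 181 to 208 (0 of 7 called), with Brn3bcKO replicate 2 the highest. Muller glia genes summed to 458 to 578 and 529 to 737, with replicate 2 the lowest Brn3bcKO IP. Bipolar cell genes had medians of 228 and 239, and 1 of 8, *Cabp5*, was called higher. Brn3bcKO replicate 2 had the highest bipolar sum of both groups, at 338 against 233 to 239 in the other Brn3bcKO IPs. Their part in the values of the mitochondrial genes was not tested. No nuclear subunit of complexes I, III, IV or V was called between the genotypes (0 of 37, 9, 14 and 17), with medians of -0.09, -0.09, -0.14 and -0.04, and neither was any of 79 mitochondrial ribosomal proteins.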

How the data were processed

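The authors prepared Smart-seq3 libraries, sequenced them as paired ends of 37 bases, and processed them with the Smart-seq3 pipeline against mm10. The deposited values are raw counts, whole numbers per Ensembl transcript. The annotation release and the treatment of strand and of reads with several positions are not given in the sources used here. The 17 transcripts listed under 2 symbols were used once, and samples were grouped by their labels, with none left out.

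Counts were analysed in R 4.3.3 with edgeR 4.0.16: filterByExpr, TMM, glmQLFit and glmQLFTest with group as the only term, on 4 and 6 residual degrees of freedom, and Benjamini-Hochberg adjustment over all transcripts tested. The 95% intervals are 1.96 SE on either side, without regard to the degrees of freedom, and so are narrower than the tests imply. DESeq2 1.42.0 was an alternative. The authors' selection of transcripts was not applied, since it rests on the contrast reported here. Every protein and rRNA gene tested is named, tRNA genes where they passed the filter, and at most 4 nuclear genes of a list, those with the smallest p, besides lists of at most 5 calls, named after their values were seen. Members and lists were chosen with earlier results of these data known. For a nuclear gene, its transcript of highest mean count was used. Windows were compared with all nuclear chromosomes of GRCm38.p6 on both strands. The fit was tested on simulated data. Same-numbered IP and input libraries of the first table come from 1 lysate, and the correlations of their deviations were 0.02 and 0.07. In the second table same-numbered libraries come from different mice, so no block was used.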

Additional observations from a re-analysis of the deposited data

Results flagged for a closer look

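Among 38 groups of 4 values tested in the second table, 8 held 1 library far from the other 3. The groups share the same libraries and include the share of counts, which sums the members. They are not independent, so this number cannot be set against a chance rate. In the Brn3bcKO IPs the library was replicate 2 each time, with 1.41% of counts in mitochondrial genes and the highest normalized CPM of *mt-Nd3* (112), *mt-Nd4* (419), *mt-Nd6* (134) and *mt-Cytb* (1390). In the Brn3b WT IPs replicate 4 was the lowest for *mt-Nd1* (904), and replicate 3 was the highest for *mt-Nd5* (861) and *mt-Nd6* (83.6). The labels give no batch for these libraries, and no reason for the distance was tested.

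The change from input to IP differed between Rpl22HA and control libraries by the interaction test of edgeR in 11 of 12 members, always below 0. Of all transcripts 17.6% were called below 0 and 20.6% above it. The calls of *mt-Rnr1*, *mt-Nd3* and *mt-Tq* were lost in DESeq2. The values, on the log2 scale, were -1.48 for *mt-Rnr1*, -2.10 for *mt-Rnr2*, -2.46 for *mt-Nd1*, -2.19 for *mt-Tq*, -2.34 for *mt-Nd2*, -2.30 for *mt-Co1*, -1.19 for *mt-Nd3*, -2.34 for *mt-Nd4*, -2.74 for *mt-Nd5*, -2.24 for *mt-Nd6* and -2.52 for *mt-Cytb*. In this table the tag and the sex of the mice cannot be told apart.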

How the results depend on the processing

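Over the alternatives tried (RLE factors, totals alone, scaling without mitochondrial genes, no filter, DESeq2, a likelihood ratio test on the groups compared alone, the replicate block, sex as a term in the second table, and each library left out), the counts of members called, taken here over all 16 members tested in the first table, stayed within 1.5 times of the main count, with 1 exception. For members higher in Rpl22HA IPs than in their inputs the count of 2 became 1 with scaling without mitochondrial genes and with the likelihood ratio test, and ran from 1 to 2 with a library left out. With a library left out the members called ran from 6 to 11 for control IP above input, from 2 to 4 below it, and from 8 to 12 for the interaction below 0. All these counts include the 4 tRNA genes that passed the filter through the control IPs, whose high level there was fixed beforehand. Over the 12 others the main fit called 4 higher and 3 lower in control IP against input, near the shares of all transcripts (27.5% and 23.7%). The selection of transcripts by the tagged against the untagged IP left no member to test. The share of counts with 1 transcript per gene was 1.13% in Brn3b WT IPs, 1.57% in Brn3bcKO IPs, 1.50% in Rpl22HA IPs, 6.54% in Rpl22HA inputs, 8.53% in control IPs and 6.74% in control inputs, and over protein genes only it was 2.65% in Rpl22HA inputs, 3.40% in control IPs and 2.58% in control inputs.

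With the replicate block, which pairs IP and input of 1 lysate in the first table, *mt-Rnr2* in control IP against input was 0.0066 (edgeR adjusted p = 0.980), and the interaction called 12 members below 0, *mt-Tp* besides the 11. No other call changed. In the second table the numbers pair no animals (correlations of 0.321, 0.169, 0.0228 and -0.0206), and the block called 0 members there.

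Other changes of sign concerned values that were not called, apart from *mt-Rnr1*. Between inputs, with totals alone, *mt-Co1* was -0.0085 and *mt-Nd4* -0.0024. With a library left out, values ran as follows. Between inputs *mt-Rnr1* ran from -1.20 to 0.68, *mt-Rnr2* from -0.71 to 0.45, *mt-Ti* from -2.09 to 0.43, *mt-Tq* from -1.54 to 0.24, *mt-Nd5* from -0.066 to 0.017, *mt-Nd6* from -0.40 to 0.056 and *mt-Tp* from -1.56 to 0.92. In control IP against input *mt-Rnr1* ran from -1.82 to 0.045, *mt-Rnr2* from -0.57 to 0.59, *mt-Tq* from -0.10 to 1.67 and *mt-Tp* from -0.036 to 2.44. In Rpl22HA IP against input *mt-Ta* ran from -0.58 to 0.75, and the interaction of *mt-Tt*, which rests on inputs at or near 0, from -2.97 to 1.54. In Brn3bcKO against Brn3b WT *mt-Tq* ran from -0.63 to 0.058, *mt-Nd2* from -0.030 to 0.60, *mt-Nd3* from -0.51 to 0.41, *mt-Nd4* from -0.089 to 0.77, *mt-Nd5* from -0.026 to 0.64 and *mt-Tp* from -0.12 to 0.85. Without control input replicate 1, *mt-Tq* (1.67, edgeR adjusted p = 0.00583) and *mt-Tp* (2.44, edgeR adjusted p = 0.00922) were called higher in control IP than in input. The likelihood ratio test called *mt-Nd5* lower (-0.38, edgeR adjusted p = 0.0142) and *mt-Tp* lower (-1.34, edgeR adjusted p = 0.0280) in Rpl22HA IP against input. *mt-Ta* and *mt-Tm* passed the filter only through the control IPs, so their differences between control IP and input are a description. With a library left out they ran from 1.29 to 2.89 for *mt-Ta* and from 1.34 to 3.34 for *mt-Tm*. The cause of these changes was not tested.

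The counts limit the tRNA values most, since 14 of 22 tRNA genes had fewer than 50 counts over all 16 libraries. The control inputs, the shallowest group, bound every value of the control IP against its input.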
